A study of Homo sapiens with 2 samples.

Results

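Cytosolic aminoacyl-tRNA synthetases were followed by name in RNA libraries of 95D, a lung cancer line of human origin with genotype WT. The names chosen were AARS1, GARS1, IARS1, LARS1, EPRS1, QARS1, MARS1, NARS1, TARS1 and WARS1. All 10 carried a number in the deposited files, out of 9253 names that did. One library, here the Gln-free library, came from cells kept in glutamine-free DMEM with 10% dialyzed serum, and the other, the Glc-free library, from cells kept in glucose-free DMEM with the same serum; both had 48 h of deprivation after 24 h in complete medium. There was 1 library per condition, and no library from fed cells was analysed here, so every difference below compares 2 libraries and has no replicate check, and no test was run. The series' title names an RNA immunoprecipitation with an ALKBH5 antibody, but the labels of both libraries describe total RNA depleted of ribosomal RNA. Binding to ALKBH5 was therefore not analysed here.

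Aminoacyl-tRNA synthetases join each amino acid to its tRNA and so supply the ribosome. They fall into 2 unrelated structural classes, I and II, and in animal cells several of them sit together in the multisynthetase complex while the rest work free in the cytosol. When amino acids run short, uncharged tRNA activates the kinase GCN2 (EIF2AK4), translation of the transcription factor ATF4 rises, and ATF4 is known to raise transcription of many cytosolic synthetase genes. Glutamine is itself charged by QARS1, and it supplies nitrogen for asparagine, the substrate of NARS1.

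Because that response acts at promoters, the promoter windows of these genes are shown first. RefSeq windows on GRCh38.p14, from 250 bases before to 50 after each annotated transcript start, were found for 9 of the 10 names; LARS1 had no entry. The letters TGATGNAA, the core of the composite element that C/EBP and ATF proteins bind, were searched on both strands. They were present for 6 of the 9 names, IARS1, AARS1, GARS1, MARS1, NARS1 and TARS1, beside 4.46% of all 27305 gene symbols with an entry and 2.95% of the 5552 symbols that also had a value in the files. Counted by window, 3.62% of all 35116 held them. The stricter letters TGATGCAA, a subset of the first, were present for 5 of the 9, without GARS1, beside 1.08% of all symbols and 0.866% of all windows. Each window below is 30 bases long, on the gene's own strand, 5′ to 3′, with the match in capitals, which on the opposite strand reads TTNCATCA.

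IARS1, chr9:92293692-92293721, minus strand: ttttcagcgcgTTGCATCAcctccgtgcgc
AARS1, chr16:70289675-70289704, minus strand: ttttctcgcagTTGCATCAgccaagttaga
GARS1, chr7:30594834-30594863, plus strand: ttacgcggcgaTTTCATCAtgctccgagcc
MARS1, chr12:57488053-57488082, plus strand: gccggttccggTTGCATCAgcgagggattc
TARS1, chr5:33440956-33440985, plus strand: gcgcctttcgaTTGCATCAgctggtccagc
NARS1, chr18:57621804-57621833, minus strand: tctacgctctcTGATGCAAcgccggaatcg

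The match of IARS1, MARS1 and GARS1 began 13, 4 and 33 bases before the start, that of AARS1 187 bases before it, and those of TARS1 and NARS1 2 and 14 bases after it. For GARS1 and TARS1, which have 2 annotated starts each, 1 window of the 2 held the match, that of the more downstream start. The distances given are from that start. Both matches lie inside the annotated gene spans, which begin at chr7:30594735 for GARS1 and chr5:33440696 for TARS1. QARS1, WARS1 and EPRS1 held none, which says only that these letters are not in those windows. The whole windows of IARS1, the name with the highest value, and of QARS1, the enzyme that charges glutamine, are given for comparison.

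IARS1, chr9:92293648-92293947, minus strand: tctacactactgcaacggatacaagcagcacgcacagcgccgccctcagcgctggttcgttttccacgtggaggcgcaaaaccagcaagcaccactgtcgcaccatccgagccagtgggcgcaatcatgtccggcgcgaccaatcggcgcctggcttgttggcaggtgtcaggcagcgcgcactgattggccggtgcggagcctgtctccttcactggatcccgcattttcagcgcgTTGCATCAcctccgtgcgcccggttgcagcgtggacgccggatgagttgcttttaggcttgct
QARS1, chr3:49104708-49105007, minus strand: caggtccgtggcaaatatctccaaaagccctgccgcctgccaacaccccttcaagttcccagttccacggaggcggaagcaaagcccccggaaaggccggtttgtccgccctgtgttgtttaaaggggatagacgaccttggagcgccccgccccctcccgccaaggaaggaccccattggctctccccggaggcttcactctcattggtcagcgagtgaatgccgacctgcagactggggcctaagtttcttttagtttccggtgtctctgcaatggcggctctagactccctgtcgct

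**Figure D1:**
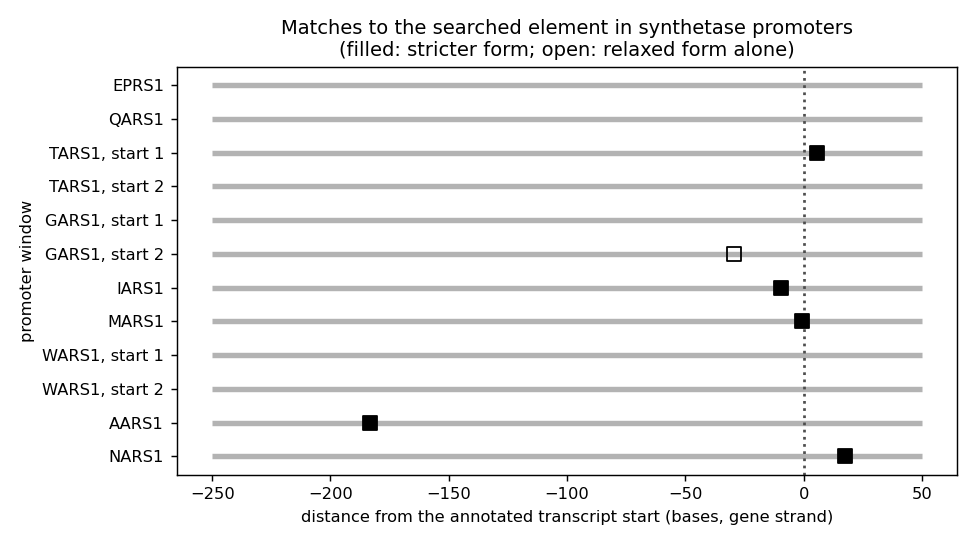
Position of each match (square) along the 12 promoter windows of the 9 synthetase names, in bases from the annotated start, on the gene's strand. Filled squares match TGATGCAA, the open square of GARS1 matches TGATGNAA alone; 4 of the 6 matches begin before the start, and 5 of the 6 lie within 33 bases of it.

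The files list transcript rows without identifiers, in a column headed as lncRNA names, so a value belongs to the rows listed under a synthetase name and need not be the level of its messenger RNA. The deposited values behave as reads multiplied by 1 factor per library and are not divided by transcript length; the order of names below is therefore an order of reads, not of molecules. The recovered reads came to 1442572 in the Gln-free and 42827 in the Glc-free library. Of all 18663 rows with a value, 99.5% were above 0 in the Gln-free library and 2.54% in the Glc-free library. ACTB and GAPDH, expressed in every cell, were among the names at 0 in the Glc-free library, so a 0 there is reported only as listed at 0, with no fold. The cell line's epithelial and lung markers were measured for 5 of 9 names (KRT7, KRT8, KRT18, KRT19 and NAPSA), all above 0 in the Gln-free library, with KRT8 and NAPSA above 0 in the Glc-free library as well. EPCAM, CDH1, NKX2-1 and SFTPB had no value. None of 6 markers of leukocytes, endothelium, fibroblasts and red cells had a value.

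The synthetase names, chosen with earlier results of these data known, stood high in the Gln-free library. Their summed values had a median of 296, beside 20.5 over all 9253 names, and 7 of the 10 lay above 149, the 90th percentile of all names. In that library the 10 names together held 0.561% of reads (95% Wilson interval 0.549 to 0.573%), against 0.406% (0.350 to 0.471%) in the Glc-free library. All intervals here hold counting error alone, and reads without unique molecular tags can be copies of 1 molecule. In the Glc-free library the reads came from IARS1 and GARS1 alone, on 1 row each of the 474 above 0. The other 8 names were listed at 0. That 2 of 10 names were above 0 there stands beside 4.25% of all names.

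The synthetase names also had more rows with a value than most names. The 10 names had 108 rows in the files, of which 72 carried a value, or 66.7%, beside 20.3% of all rows. A synthetase name had a median of 6 rows with a value, and a name of the whole table had 1. Row by row, the median synthetase value in the Gln-free library was 32.4, beside 13.4 over all rows above 0, and 21 of the 72 rows, 29.2%, lay above 72.0, the 90th percentile. In the Glc-free library 2 of the 72 rows were above 0, or 2.78%, close to the 2.54% of all rows.

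**Figure D2:**
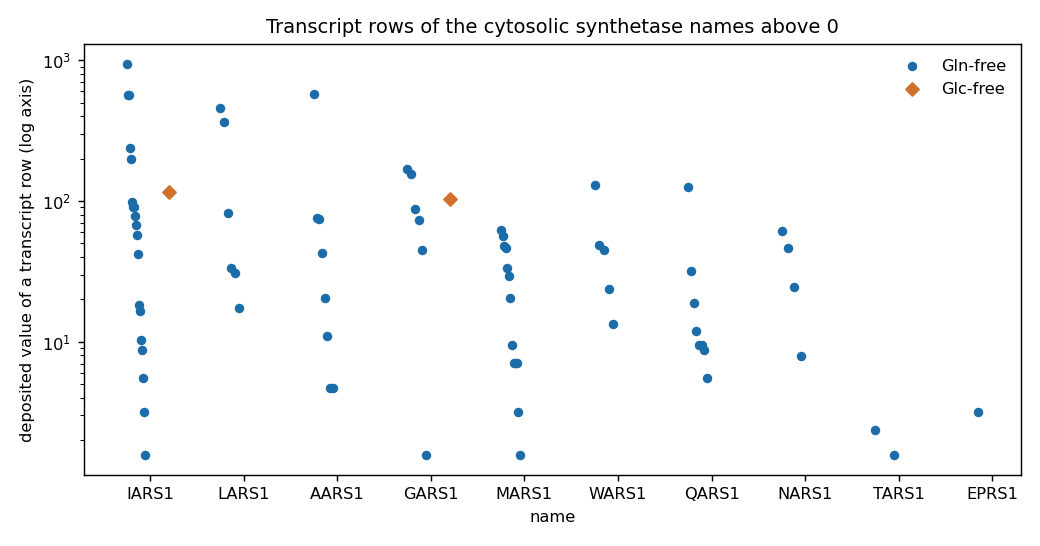
Deposited value of every transcript row above 0 for the 10 names, on a log axis; circles are rows in the Gln-free library and diamonds rows in the Glc-free library. IARS1 has 19 rows spread from 1.56 to 947, and the Glc-free library has 1 row each for IARS1, at 116, and GARS1, at 104.

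Among the enzymes of the multisynthetase complex, IARS1, the isoleucyl-tRNA synthetase of class I, had the highest value, 3113 in the Gln-free library against 116 in the Glc-free library. It ranked 9th of 9253 names in the Gln-free library and took 48.7% of the summed value of the 10 synthetases. Its gene spans chr9:92210207-92293697. The 5 highest of its 19 rows were at 947, 570.3, 570.3, 237 and 200.1, and the lowest at 1.56, in the Gln-free library. The highest row held 30.4% of the name's reads (29.0 to 31.9%), so the level did not rest on 1 row. Both rows at 570.3 had 721 reads; sets of rows of 1 name with equal values were rare, 11 among the 2821 rows of 50 or more. The pair differed in the Glc-free library, where 1 row was at 116 from 92 reads and the other was listed at 0. It is therefore not 1 row repeated in full. Why the Gln-free values were equal was not tested, and the rows have no identifiers. The highest IARS1 row was listed at 0 in the Glc-free library.

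The IARS1 gene also hosts a small nucleolar RNA, SNORA84, and the microRNA gene MIR3651, at chr9:92292461-92292593 and chr9:92292458-92292547, near its start. Neither had a value of its own in the files. Whether reads of these small RNAs are among the IARS1 rows was not tested.

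LARS1, the leucyl-tRNA synthetase, which also senses leucine for the mTORC1 kinase, stood at 983 in the Gln-free library and was listed at 0 in the other. Of its 6 rows, 458 and 361 carried most of the value, followed by 82.3, 33.2, 30.8 and 17.4. LARS1 thus ranked 47th of all names, the second of the synthetases, and 2 rows dominated it.

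MARS1, the methionyl-tRNA synthetase, which also charges the initiator tRNA, stood at 332 in the Gln-free library and was listed at 0 in the other. Its 13 rows ran from 1.56 to 62.5 with a median of 20.5, and the highest held 18.8% of its reads (15.4 to 22.8%). This was the lowest share in a highest row among the 10 names. Its annotated span overlaps ARHGAP9 at its start and DDIT3, a stress-induced transcription factor, at its end, and neither of these had a value.

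QARS1, the glutaminyl-tRNA synthetase, whose substrate was the nutrient withheld, stood at 221 in the Gln-free library and was listed at 0 in the other. Its 8 rows were at 126, 31.6, 19.0, 11.8, 9.47, 9.47, 8.68 and 5.52, so 1 row held 56.8% of its reads (50.9 to 62.5%). Of its 17 rows in the files, 9 had no value.

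EPRS1, which fuses a class I glutamyl- to a class II prolyl-tRNA synthetase and is the largest enzyme of the complex, had 1 row with a value, at 3.15 from 4 reads in the Gln-free library, and was listed at 0 in the other. The 5 enzymes of the complex therefore ranged widely, from 3.15 for EPRS1 to 3113 for IARS1. Together they held 0.408% of reads (0.398 to 0.418%) in the Gln-free library, against 0.215% (0.175 to 0.263%), all IARS1, in the Glc-free library.

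Among the enzymes outside the complex, AARS1, the alanyl-tRNA synthetase of class II, stood at 808 in the Gln-free library and was listed at 0 in the other. Its highest row was at 574 and the other 7 between 4.73 and 75.1, so 71.1% of its reads (68.3 to 73.8%) lay in 1 row. Of the 10 names, no other with more than 5 reads had so large a share in its highest row.

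GARS1, the glycyl-tRNA synthetase, which serves both cytosol and mitochondria, stood at 534 in the Gln-free library against 104 in the Glc-free library. In the Gln-free library its 6 rows were at 170.1, 156, 87.8, 73.6, 45.1 and 1.56. The row above 0 in the Glc-free library, at 104 from 82 reads, was the fourth of these, at 73.6 from 93 reads in the Gln-free library. On this row the Gln-free library was thus the lower one as deposited, at a ratio of 0.709 (95% counting interval 0.522 to 0.967), while the sum over rows was higher in it.

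GARS1 lies at chr7:30594735-30634033, and the separate name GARS1-DT, its divergent long non-coding RNA at chr7:30548357-30577779, does not overlap it. GARS1-DT, chosen after its values were seen, stood at 768 over 17 rows in the Gln-free library and was listed at 0 in the other. In the Glc-free library GARS1 was thus above 0 while GARS1-DT was not.

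WARS1, the tryptophanyl-tRNA synthetase, known also as an interferon-induced gene, stood at 261 in the Gln-free library and was listed at 0 in the other. Its 5 rows were at 129.7, 49.0, 45.1, 23.7 and 13.4, and the highest held 49.7% of its reads (44.3 to 55.1%). NARS1, the asparaginyl-tRNA synthetase, stood at 139.9 over 4 rows of 60.9, 46.7, 24.5 and 7.89 in the Gln-free library and was listed at 0 in the other. TARS1, the threonyl-tRNA synthetase, had rows of 2.35 and 1.56, or 5 reads in all, in the Gln-free library and was listed at 0 in the other. TARS1 and EPRS1 were thus the names with almost no reads, at ranks 8365 and 8379. The 5 free enzymes held 0.153% of reads (0.147 to 0.160%) in the Gln-free library, against 0.191% (0.154 to 0.238%), all GARS1, in the Glc-free library, and these intervals overlap. Their deposited values summed to 1746 in the Gln-free library against 104 in the Glc-free library, so the direction for the free enzymes turned between these 2 scales. The totals behind both shares include the reads of XLOC_220679, the most abundant name. Shares of the free enzymes without that name were not computed, so whether the turn rests on it was not tested.

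**Figure D3:**
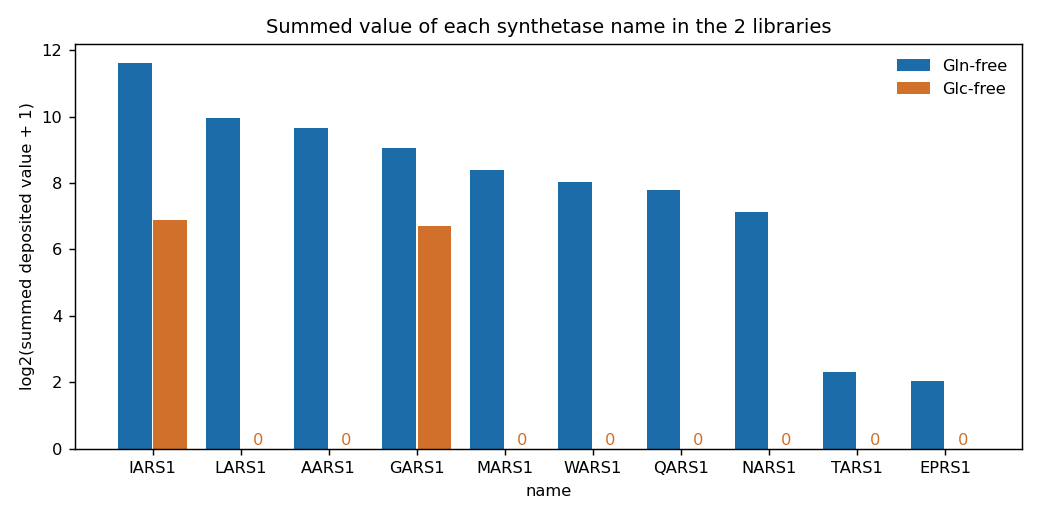
Summed deposited value of each name as log2(value + 1), Gln-free (left bar) and Glc-free (right bar); a 0 marks a name listed at 0. All 10 names are above 0 in the Gln-free library, from 3.15 (EPRS1) to 3113 (IARS1), and IARS1 and GARS1 are above 0 in both.

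On log2(value + 1) of the deposited sums, all 10 synthetases passed 2-fold towards the Gln-free library, as did 97.4% of all 9253 names, so the count says nothing particular to synthetases. For 8 of the 10 it is no measured fold, since they were listed at 0 in the Glc-free library and pass through the pseudocount, TARS1 and EPRS1 with 5 and 4 reads among them. None was at least 2-fold higher in the Glc-free library, beside 1.42% of all names. The median log2 ratio was 7.47 for the 10 names and 4.32 for all names. This median, too, rests on the names listed at 0 and on the pseudocount. With each library rescaled to 1000000, the 8 names listed at 0 still passed 2-fold and IARS1 and GARS1 did not, beside 96.0% of all names that passed.

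A listed 0 was set beside depth. Had a name held the same share of reads as in the Gln-free library, the Glc-free library would hold 36.9 reads of LARS1, 30.3 of AARS1, 12.5 of MARS1, 9.80 of WARS1, 8.31 of QARS1 and 5.25 of NARS1. By the same reckoning it would hold 30.0 reads of ACTB and 30.4 of GAPDH, and both were listed at 0 as well, so these 0s cannot be read as low expression of the synthetases. For TARS1 and EPRS1 it would be 0.148 and 0.119, so a lower share of these names in the Glc-free library was not detectable at this depth. For IARS1 and GARS1 the same reckoning gives 117 and 20.0 reads, and 92 and 82 were found. IARS1 thus had fewer reads than its share would give and GARS1 more, while the 8 others had none. The reckoning uses shares that count XLOC_220679 and supposes reads spread over names as in the Gln-free library. In the Glc-free library all reads lay on 474 rows, or 2.54% of those with a value.

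IARS1 and GARS1 could be compared in both libraries. As deposited, IARS1 was 26.8-fold higher in the Gln-free library (95% counting interval 21.8 to 33.3) and GARS1 5.15-fold (4.09 to 6.56). The deposited scale sets these folds: among the 351 names above 0 in both, 42.2% were at least 2-fold higher in the Gln-free library, and the median log2 ratio was 0.61 as deposited and -3.77 with each library rescaled. As a share of reads, IARS1 was at 0.273% (0.264 to 0.281%) in the Gln-free library against 0.215% (0.175 to 0.263%) in the Glc-free library, a ratio of 1.27 (1.03 to 1.58). GARS1 was at 0.0468% (0.0434 to 0.0505%) in the Gln-free library against 0.191% (0.154 to 0.238%) in the Glc-free library, a ratio of 0.244 (0.194 to 0.311). The direction for GARS1 therefore turned with the scale, at log2 ratios of 2.35 as deposited and -2.03 after rescaling, and that of IARS1 did not, at 4.73 and 0.35. The direction for IARS1 did turn on its row above 0 in both libraries, which was 4.90-fold higher in the Gln-free library as deposited (3.94 to 6.16) but at a ratio of 0.233 (0.187 to 0.292) as a share of reads. Each Glc-free share here came from 1 row of the 474 above 0 in that library. Other names above 0 there, from the lists compared here, held from 0.201% (SLC3A2) to 0.369% (KRT8) of its reads.

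The ratio of IARS1 to GARS1 reads within a library is free of any scale between libraries. It was 5.83 (95% counting interval 5.37 to 6.34) in the Gln-free library and 1.12 (0.824 to 1.53) in the Glc-free library. On the rows above 0 in both libraries, a choice made with the values in view, it was 7.75 (6.24 to 9.73) in the Gln-free library and the same 1.12 in the other. On the log2 scale the ratio was higher in the Gln-free library by 2.38 (1.93 to 2.82) for the sums and by 2.79 (2.26 to 3.32) for those rows. These intervals do not include 0, but they hold counting error between 2 libraries and not the spread between cultures. In the Glc-free library the ratio rested on 1 row per name, of 92 and 82 reads, where 42827 reads lay on 474 rows. Other names above 0 there, from the lists compared here, ran from 86 reads (SLC3A2) to 158 (KRT8). Counts of this size there were thus not particular to IARS1 and GARS1. Whether the difference in ratio is particular to these 2 names was not tested.

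**Figure D4:**
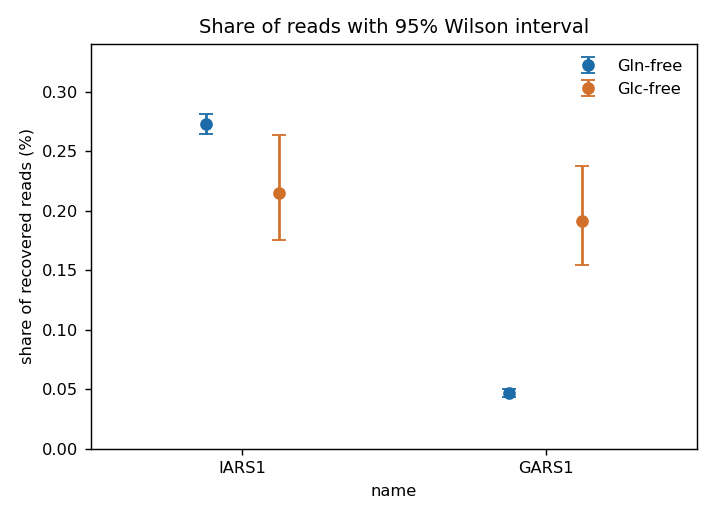
Share of recovered reads held by IARS1 and GARS1, with 95% Wilson intervals, in the Gln-free (left) and Glc-free (right) library. The IARS1 share is 0.273% in the Gln-free and 0.215% in the Glc-free library, and the GARS1 share is 0.0468% in the Gln-free and 0.191% in the Glc-free library.

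The names nearest to IARS1 in the pair of log2(value + 1) values over the 2 libraries were PDE10A, at 3131 in the Gln-free library and 159 in the Glc-free library, and SMYD3, at 1474 in the Gln-free library and 135 in the Glc-free library. Nearest to GARS1 were SNHG29, at 514 in the Gln-free library and 121 in the Glc-free library, and SLC3A2, a subunit of amino acid exchangers, at 630.4 in the Gln-free library and 109 in the Glc-free library. With 2 libraries this likeness is only that of 2 numbers.

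The other synthetases had lower medians. Of 10 other cytosolic synthetase names 9 had a value, and all 9 were listed at 0 in the Glc-free library. Their median in the Gln-free library was 75.9, beside 296 for the 10 names above. The lists were chosen with earlier results of these data known, so this difference describes the lists alone. YARS1, the tyrosyl enzyme, led at 463, followed by HARS1, the histidyl enzyme, at 335 and CARS1, the cysteinyl enzyme, at 159. VARS1, the valyl enzyme, was lowest, at 1.56. FARSB, a subunit of the phenylalanyl enzyme, had no value. CARS1 was the 1 of the 7 with a promoter entry to hold TGATGNAA.

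Of 17 mitochondrial synthetase names 10 had a value, with a median of 21.7 in the Gln-free library, close to the 20.5 of all names. CARS2 stood at 285, RARS2 at 144 and EARS2, the mitochondrial glutamyl enzyme, at 67.2 there, and all 3 were listed at 0 in the Glc-free library. NARS2, the mitochondrial counterpart of NARS1, ran opposite, listed at 0 in the Gln-free library and at 113 from 89 reads on 1 row in the Glc-free library. A row at 0 in the Gln-free library carries a value only where it is above 0 in the other, so such a row can run only in this direction. Whether the listed 0 means absence of NARS2 RNA was not tested. Of 14 mitochondrial names with a promoter entry, 1 held TGATGNAA.

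**Figure D5:**
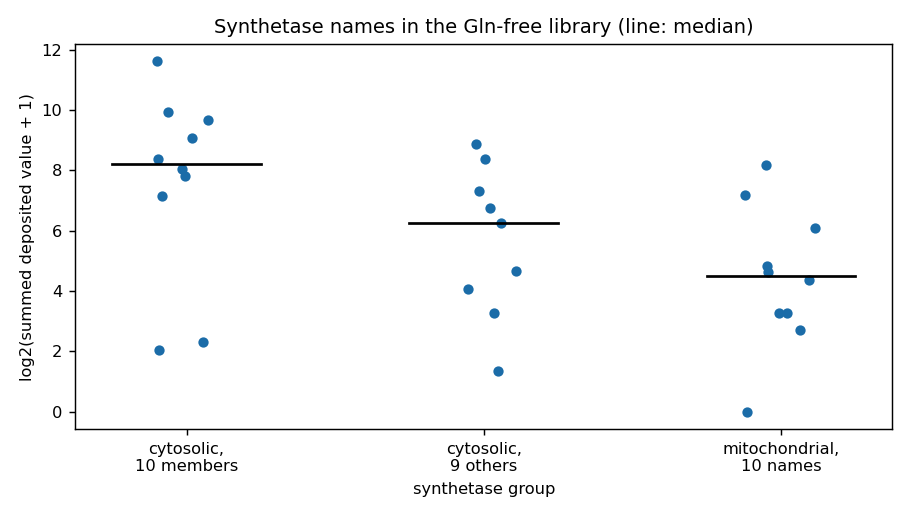
Summed deposited value, as log2(value + 1), of each synthetase name in the Gln-free library, for the 10 cytosolic names described here, 9 other cytosolic names and 10 mitochondrial names; lines are medians. The medians of the values are 296, 75.9 and 21.7, and the ranges overlap. The lists were chosen with earlier results of these data known.

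Of the proteins that hold the multisynthetase complex together, AIMP1 had a value, 6.31 from 8 reads in the Gln-free library and listed at 0 in the other, while AIMP2 and EEF1E1 had none. Among the 9 synthetase names with a promoter entry, the 6 with TGATGNAA had values in the Gln-free library of 3113 (IARS1), 808 (AARS1), 534 (GARS1), 332 (MARS1), 139.9 (NARS1) and 3.92 (TARS1). The 3 without it were at 261 (WARS1), 221 (QARS1) and 3.15 (EPRS1). The ranges overlap. The names above 0 in the Glc-free library, IARS1 and GARS1, hold the letters, but so do 6 of all 9 names with an entry. GARS1 holds TGATGNAA without the stricter TGATGCAA. Whether the letters go with a value above 0 in that library was not tested.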

How the data were processed

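RNA was sequenced from 2 libraries, 1 from cells without glutamine (Gln-free) and 1 from cells without glucose (Glc-free), so nothing was tested. The submitters' processing notes name HISAT2 2.0.5, StringTie and the build hg38, without roles. No source used here names the counter, the annotation or any scaling. As the file headers show, the authors deposited 1 value per transcript row with no stated unit, and a mark in most rows. The value column of the Glc-free file is headed Glu; its condition was taken from the sample's label. Rows with a number were used and values under 1e-09 set to 0. Low values rose in equal steps of 0.791 (Gln-free) and 1.264 (Glc-free); dividing by the step, after offsets of -0.018 and 0.022, gave whole reads within 0.1 for 100% of values up to 1000 reads. The recovery of the step and of reads was tested on data simulated with equal steps and an offset. That test cannot show whether the deposited values are reads. Rows were summed by name with Python 3.11.15, pandas 2.3.3 and scipy 1.17.1, and ratios were log2(value + 1), Gln-free minus Glc-free. Intervals are 95% Wilson for shares and exact binomial for ratios of reads, except that of a ratio between libraries of 2 names, which is a normal approximation on the log scale. Members and lists were chosen with earlier results of these data known. Named genes were all 10 members; of each related list, the names above 0 in the Glc-free library and the 3 highest in the other; and the 2 names nearest to each member above 0 in both. GARS1-DT, and VARS1 as the lowest of its list, were added with their values in view. Alternatives were the scale, the pseudocount, the largest row, a minimum and the fold threshold.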

Additional observations from a re-analysis of the deposited data

How the results depend on the processing

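The count of synthetase names past 2-fold towards the Gln-free library on log2(value + 1), 10, stayed between 8 and 10 under the 9 alternatives run. The share of all names past 2-fold was 93.2% when centred on names above 0 in both and 97.9% on recovered reads. Names listed at 0 in the Glc-free library pass through the pseudocount, so the stable count says nothing particular to synthetases. The count above 0 in the Glc-free library stayed at 2 under both of its alternatives. The median log2 ratio, 7.47, was 7.28 with each library rescaled to 1000000, 6.86 centred on names above 0 in both, 10.78 with a pseudocount of 0.1, 5.97 on the largest row, 7.91 with a minimum of 5, and 7.81 on recovered reads. In the same order, without the minimum, IARS1 (4.73) was at 0.35, 4.12, 4.74, 3.01 and 5.40, and GARS1 (2.35) at -2.03, 1.75, 2.36, 0.71 and 3.03. Settings chosen after the data were seen were rescaling without XLOC_220679, the most abundant name, which gave 7.98 for the median, 0.85 for IARS1 and -1.52 for GARS1, and the row above 0 in both libraries alone, which gave 2.28 for IARS1 and -0.49 for GARS1. The GARS1 reversals follow from the scale between the libraries and from which rows are summed. The ratio of IARS1 to GARS1 values in the Gln-free library, 5.83, was 5.57 on the largest rows and 4.76 with 1 of the equal IARS1 rows left out. The IARS1 share of the summed value, 48.7%, was 37.4% on the largest rows, 41.0% over all cytosolic synthetases and 43.6% with 1 equal row left out. No paired analysis was possible because each condition has 1 library. The Glc-free values rest on 174 reads for all 10 names. At their Gln-free shares ACTB and GAPDH would hold 30.0 and 30.4 reads there, and both were listed at 0. The reason for such 0s was not tested.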

Other observations

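Genes of the response to amino acid shortage, among them its kinase EIF2AK4, were measured for 5 of 12 names. Of the 5, 3 were above 0 in both libraries, beside 3.79% of all names. As with GARS1, the scale between the libraries decides how far apart their values lie. ASNS, which makes asparagine from aspartate and glutamine, stood at 114 in the Gln-free library against 188 in the Glc-free library as deposited, and at 0.00998% of reads in the Gln-free library against 0.348% in the Glc-free library, a ratio of 0.0287. PHGDH, the first enzyme of serine synthesis, stood at 172 in the Gln-free library against 128 in the Glc-free library as deposited, but at 0.0150% of reads in the Gln-free library against 0.236% in the Glc-free library, a ratio of 0.0638, so its direction turned. SLC3A2 turned likewise, at 630.4 in the Gln-free library against 109 in the Glc-free library as deposited, and at a ratio of 0.275 as a share of reads. SLC7A5, the partner of SLC3A2 in leucine uptake, stood at 103 in the Gln-free library and EIF2AK4 at 11.8, each against a listed 0 in the Glc-free library. ATF4, DDIT3, TRIB3, CHAC1, SESN2, SLC7A11 and PSAT1 had no value. Of the names on this list with a promoter entry, 3 of 11 held TGATGNAA.

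Of 9 names for tRNA proofreading, amidation and selenocysteine charging, 3 had a value, and all 3 were listed at 0 in the Glc-free library. In the Gln-free library SEPSECS, which completes selenocysteine on its tRNA, stood at 93.3, GATB, a subunit of the mitochondrial amidotransferase that makes glutaminyl-tRNA, at 36.4, and AARSD1, an alanyl-tRNA editing protein, at 34.7.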
